A study of Mus musculus with 4 samples.

Results

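Complement is a set of plasma and tissue proteins that mark cells and particles for removal, and 9 genes of its classical and alternative pathways are described here, of 35275 gene identifiers in the table. They were taken by name: C1qa, C1qb and C1qc, C2, C4b, C3, Cfb, Cfd and Serping1. RNA came from lung tumours of Balb/c mice that lack Nrf2 (Nrf2 -/-, called KO, 2 libraries) and of wild-type Balb/c mice (Nrf2 +/+, called WT, 2 libraries). All mice, wild type included, had received vinyl carbamate, a carcinogen that induces lung tumours, given 2 or 4 times at 16 mg/kg. Each sample pools 3 to 4 tumours, taken 40 to 44 weeks after initiation. Doses, weeks and tumour numbers are not stated sample by sample, and age and sex are not given. The comparison asks how expression in advanced tumours differs when Nrf2, a transcription factor that activates antioxidant genes, is missing.

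In the classical pathway the C1 complex, made of C1q and the proteases C1r and C1s, cuts C4 and C2, and their fragments form an enzyme that cuts C3, the C3 convertase. In the alternative pathway, factor D (Cfd) cuts factor B (Cfb) bound to C3 fragments, which gives another C3 convertase. C1 inhibitor (Serping1) stops C1r and C1s, and macrophages are a main source of C1q, while the liver makes most plasma C3. Lung epithelium and stromal cells also make C3.

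Depth worked out from the values was 17.98 and 16.89 M reads for KO 1 and KO 2, against 21.66 and 21.22 M reads for WT 1 and WT 2. Nfe2l2, which encodes Nrf2, was at 3.66 and 2.96 FPKM (fragments per kilobase of gene and M reads) in KO 1 and KO 2, against 96.3 and 87.9 FPKM in WT 1 and WT 2. Markers of alveolar type 2 cells, the cells that make surfactant, were present in all 4 libraries, with Sftpc between 75159 and 90474 FPKM. All comparisons rest on 2 libraries a genotype, tested with limma on log2(FPKM + 1), and a gene was called at a Benjamini-Hochberg adjusted p under 0.05. An exact two-sided permutation test of 2 against 2 libraries cannot go below 0.333.

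Of the 9 genes, 8 had reads, 6 passed the filter for testing (2 libraries or more with FPKM at or above 1) and 0 were called as different between KO and WT tumours. Among all 13147 tested genes 15 were called, which is 0.114%, and 0.0761% were called as higher in KO. At an unadjusted limma p under 0.05, 2 of the 6 were higher in KO tumours (C1qa and Serping1), as were 8.36% of all tested genes, and 0 were lower, against 7.01% of all. For 5 of the 6 both KO libraries were above both WT libraries, where 22.7% of all tested genes had that order and 48.1% had no overlap in either direction. C3, C4b, Serping1 and the 3 C1q genes had their highest value in KO 2, and KO 1 lay much closer to the WT libraries than to KO 2. KO 2 was the highest of the 4 libraries for 30.1% of all tested genes.

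**Figure D1:**
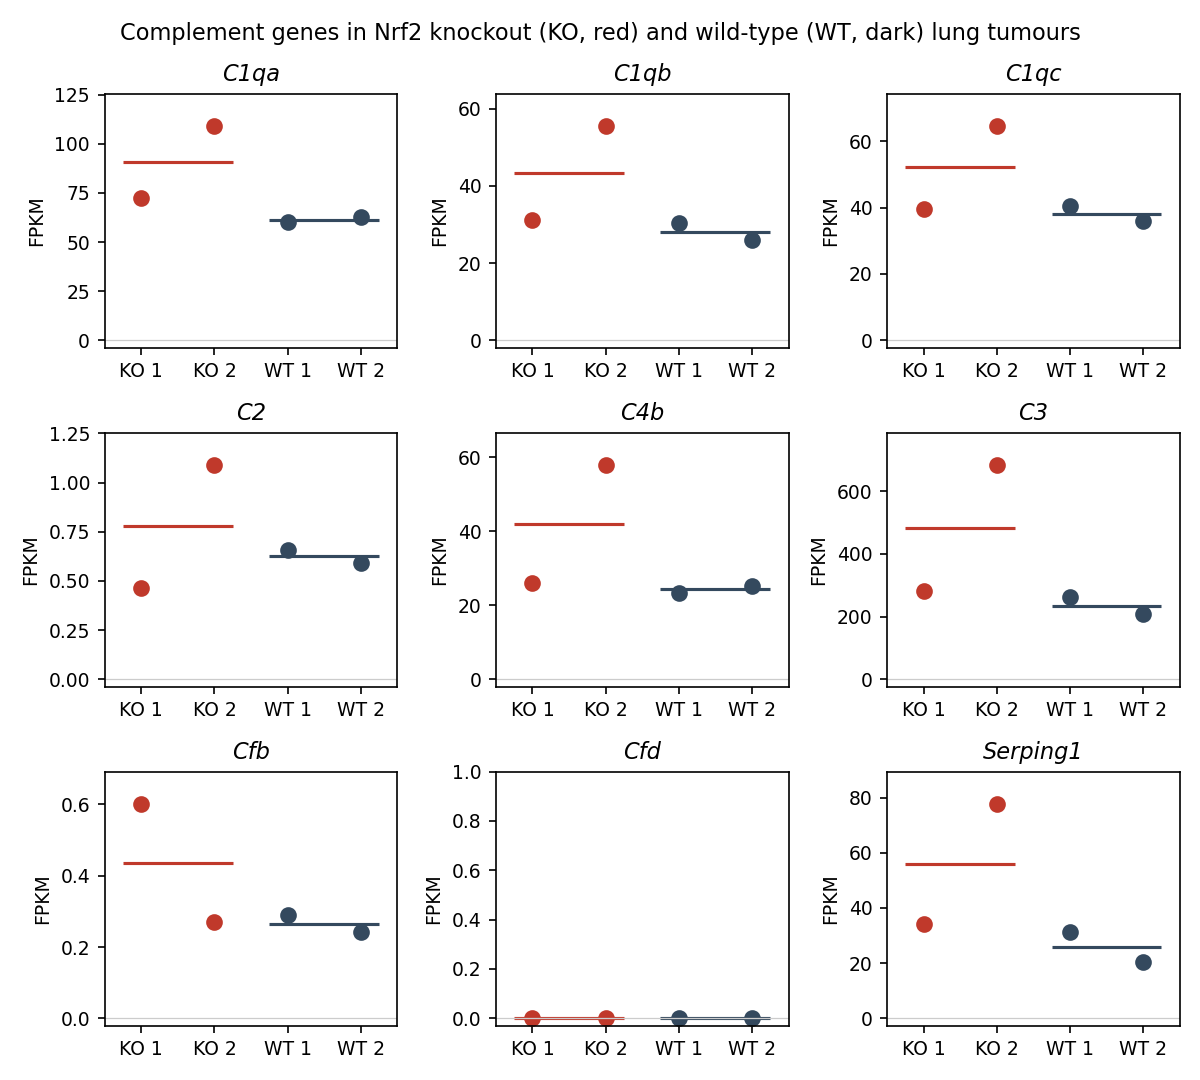
FPKM (vertical axes, each from 0) of the 9 complement genes in KO 1 and KO 2 (red) and WT 1 and WT 2 (dark); points are libraries and horizontal lines are group means. C3, C4b, Serping1 and the C1q genes show 1 high library, KO 2, and lower values in the other 3, while Cfd is listed at 0 in all 4.

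C1qa, C1qb and C1qc encode the A, B and C chains that together make C1q, the part of C1 that binds antibody and cell surfaces. They lie next to each other on the minus strand of chromosome 4 in mm10 (C1qb at 136880129 to 136886187, C1qc at 136889804 to 136893065 and C1qa at 136895917 to 136898803). C1qa stood at 72.3 and 109 FPKM in KO 1 and KO 2, against 60.0 and 62.8 FPKM in WT 1 and WT 2. Both KO libraries were above both WT libraries, with KO 1 only a little above. Its log2 fold change was 0.53 with an SE of 0.20 (limma adjusted p = 0.293). Behind these values were 1352 and 1919 reads in the KO libraries and 1351 and 1386 in the WT libraries.

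For C1qb the KO libraries gave 31.0 and 55.6 FPKM and the WT libraries 30.3 and 25.9 FPKM. KO 1 and WT 1 were almost level, and KO 2 stood apart. The log2 fold change was 0.55 ± 0.26 (SE; limma adjusted p = 0.386). C1qc was at 39.6 and 64.7 FPKM in KO 1 and KO 2 and at 40.4 and 35.9 FPKM in WT 1 and WT 2, so the groups overlapped (log2 fold change 0.40 ± 0.23, SE; limma adjusted p = 0.450). The 3 chains kept similar proportions on the FPKM scale in every library. C1qa over C1qb was 2.33 and 1.97 in KO 1 and KO 2 and 1.98 and 2.43 in WT 1 and WT 2, and C1qc over C1qb lay between 1.16 and 1.39.

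Because the C1q genes are neighbours and C3 has the highest level of the 9, the 250 bases upstream of the RefSeq start of C1qb (chr4:136886201-136886450), C1qc (chr4:136892915-136893164) and C3 (chr17:57228137-57228386) are shown. All are on the minus strand, from GRCm38.p6, and written 5′ to 3′ along the gene. For C1qb and C1qc the RefSeq start differs from the GENCODE coordinates given above. The C1qc bases from 136892915 to 136893065 lie inside the gene as GENCODE annotates it. The table of promoters held 4 of the 9 genes (these and Cfd). Capitals mark matches on either strand to any of 4 motifs: TGACNNNGC, the core of the antioxidant response element that Nrf2 binds, the core of the interferon-stimulated response element, TTCNNNGAA, the gamma-activated site, and the NF-kB consensus.

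C1qb: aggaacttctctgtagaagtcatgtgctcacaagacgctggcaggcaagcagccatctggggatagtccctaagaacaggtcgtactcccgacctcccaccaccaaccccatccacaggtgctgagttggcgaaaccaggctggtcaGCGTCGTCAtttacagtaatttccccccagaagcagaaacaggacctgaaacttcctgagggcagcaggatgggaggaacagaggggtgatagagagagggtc

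C1qc: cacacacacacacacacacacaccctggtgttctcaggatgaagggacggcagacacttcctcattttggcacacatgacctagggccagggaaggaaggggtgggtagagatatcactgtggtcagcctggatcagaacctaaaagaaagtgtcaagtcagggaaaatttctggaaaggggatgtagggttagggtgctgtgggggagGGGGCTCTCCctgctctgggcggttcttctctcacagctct

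C3: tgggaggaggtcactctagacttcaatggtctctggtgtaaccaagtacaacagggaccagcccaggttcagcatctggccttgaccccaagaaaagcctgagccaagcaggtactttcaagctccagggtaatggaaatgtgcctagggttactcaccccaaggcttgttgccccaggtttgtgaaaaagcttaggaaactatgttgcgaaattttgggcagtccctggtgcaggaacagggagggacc

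The window searched also took in the 50 bases after the start, and starts here are those of RefSeq. C1qb held 1 antioxidant response element core, read on the opposite strand, whose leftmost base as printed lies 103 bases before the start, and 12.4% of 32851 promoters of this length held that motif. C1qc held 1 match to the NF-kB consensus, beginning 41 bases before the RefSeq start, and 4.51% of promoters held that motif. This match lies inside the gene as GENCODE annotates it, which reaches 136893065. The 2 matches do not overlap any other motif searched. Cores of the interferon-stimulated element and gamma-activated sites were in 3.44% and 8.30% of all promoters and in none of these 4 windows, and C3 and Cfd matched none of the 4 motifs. A match is letters in a window and does not show that a factor binds there.

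C4b and C2 supply the fragments of the classical C3 convertase. C4b (chromosome 17, 34728380 to 34743882, minus strand) was at 26.1 and 57.9 FPKM in KO 1 and KO 2 and at 23.4 and 25.2 FPKM in WT 1 and WT 2. KO 1 lay less than 3 FPKM above both WT libraries, and KO 2 held 2.22 times the level of KO 1. The log2 fold change was 0.66 ± 0.34 (SE; limma adjusted p = 0.412). C4a, a close copy of C4b on the same chromosome, was at 1.62 and 2.89 FPKM in the KO libraries and 1.23 and 1.78 FPKM in the WT libraries. C4b over C4a was between 14.2 and 20.03 in all 4 libraries, and both values depend on how reads shared by the copies were counted.

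C2, the protease that joins C4b, lies on the minus strand of chromosome 17 (34862604 to 34898265) and was listed at 0.466 and 1.09 FPKM in KO 1 and KO 2 and at 0.657 and 0.592 FPKM in WT 1 and WT 2. It did not pass the filter, since 1 library reached an FPKM of 1 where 2 are needed. The values of KO 1 and KO 2 lay on either side of both WT values. Reads implied by the smallest gene length that fits were 10 and 22 in the KO libraries and 17 and 15 in the WT libraries, and may be undercounted.

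Cfb, the protease of the alternative convertase, is the next gene on that strand (34856374 to 34862518) and was at 0.602 and 0.270 FPKM in KO 1 and KO 2 and at 0.289 and 0.242 FPKM in WT 1 and WT 2. KO 1 was the high library here and KO 2 lay between the WT values, unlike for the genes above. In a fit with no filter on low values, the log2 fold change was 0.11 ± 0.20 for C2 and 0.17 ± 0.13 for Cfb (SE; limma adjusted p = 0.840 and 0.649), and that fit called 0.00463% of the genes it tested.

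GENCODE annotates Gm20547, a gene that runs from within C2 into Cfb on the same strand (34856412 to 34882042), and 100% of its exonic bases belong to C2 or Cfb. Gm20547 is listed at 0 in all 4 libraries. It covers 79.5% of the exonic bases of Cfb and 42.8% of those of C2, and with Zbtb12 on the opposite strand 46.9% of C2 is shared. Of 79 protein-coding genes with at least 90% of their exonic bases shared with other genes on the same strand, 70 (88.6%) were listed at 0, as were 36 of 52 (69.2%) of those sharing that much with the opposite strand. Among 16442 genes that share no exonic base, 4128 (25.1%) were listed at 0. C2 and Cfb share less than those classes ask, and of the 4824 genes between, theirs among them, 329 (6.82%) were listed at 0, a lower share than of genes with no overlap. The part of this overlap in the low values of C2 and Cfb was not tested, and their FPKM is not read here as the amount of their mRNA.

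C3, the protein on which all pathways converge and whose cleavage marks surfaces, lies further along chromosome 17 (57203970 to 57228136, minus strand) and had the highest level of the 9. It was at 280 and 685 FPKM in KO 1 and KO 2, against 262 and 208 FPKM in WT 1 and WT 2. KO 2 held 2.44 times the level of KO 1, a gap between the KO libraries that 105 of 13147 tested genes (0.799%) matched or exceeded in that direction. KO 1 was 1.19 times the WT mean. The group means were 483 ± 286 FPKM in KO tumours and 235 ± 38.7 FPKM in WT tumours (SD, n = 2 each). The log2 fold change was 0.91 ± 0.40 (SE; limma adjusted p = 0.354).

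Cfd, known as adipsin and abundant in fat, activates factor B. It was listed at 0 in all 4 libraries (chromosome 10, 79890853 to 79892655, plus strand). At its annotated exon length of 922 bases, 3 reads, the limit that a count of 0 allows, would give 0.181 and 0.193 FPKM in KO 1 and KO 2 and 0.150 and 0.153 FPKM in WT 1 and WT 2, for counting error only. It shares no exonic base with another gene, and 0 of 72 ribosomal protein genes were listed at 0. Of 11 adipocyte markers, 2 (Lep and Ucp1) were at 0 in all libraries, and Adipoq had reads in WT 1 alone (0.0504 FPKM). Fabp4, which endothelial cells and macrophages also express, was at 62.9 and 122 FPKM in KO 1 and KO 2 and 41.7 and 34.3 FPKM in WT 1 and WT 2. Lpl, also made by macrophages, was at 40.2 and 42.2 FPKM in KO tumours and 56.4 and 53.1 FPKM in WT tumours.

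Serping1 (chromosome 2, 84765387 to 84775444, minus strand) encodes C1 inhibitor, a serpin that also restrains the contact system. It was at 34.3 and 77.8 FPKM in KO 1 and KO 2 and at 31.4 and 20.6 FPKM in WT 1 and WT 2. KO 1 and WT 1 were close, WT 2 was lowest and KO 2 highest, a span of 3.78 times over the 4 libraries. Its log2 fold change of 1.00 ± 0.38 (SE) was the largest of the 6 tested genes (limma adjusted p = 0.304), and 1.10% of all tested genes had one at least as large. C3 and Serping1 varied in step. C3 over Serping1 was 8.18 and 8.80 in KO 1 and KO 2 and 8.35 and 10.1 in WT 1 and WT 2, and C3 over C4b ran from 8.23 in WT 2 to 11.8 in KO 2.

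The other genes of the pathway were taken from a list of 56 that includes the 9. Of its 34 tested genes 0 were called. At an unadjusted limma p under 0.05, 5 were higher and 0 lower in KO tumours, against 8.36% and 7.01% of all tested genes. Their median log2 fold change was 0.29, against -0.00 over all tested genes, and it was 0.46 without KO 1, 0.09 without KO 2 and 0.10 with a pseudocount of 10. For 14 of the 34 both KO libraries were above both WT libraries and for 4 both were below, where all tested genes gave 22.7% and 25.4%. Without the 9, the median of the 28 tested genes was 0.18, and KO 2 was highest for 15 of them, against 30.1% of all tested genes.

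**Figure D2:**
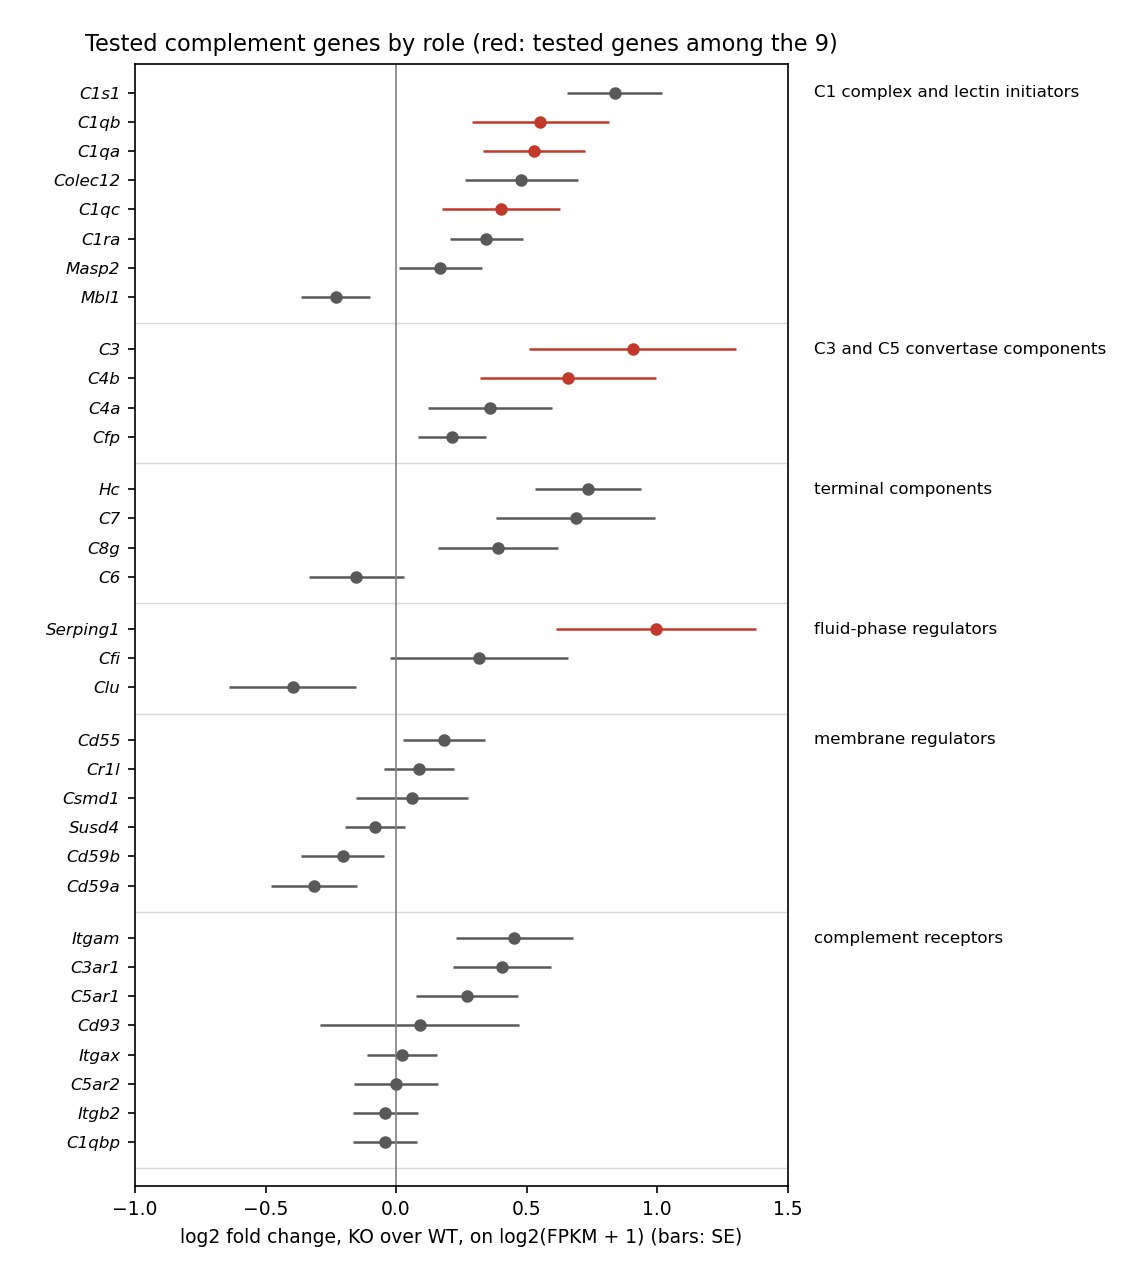
Log2 fold change of KO over WT with its SE (horizontal axis, on log2(FPKM + 1)) for tested complement genes, grouped by role; red marks the tested genes among the 9. Serping1 and C3 lie furthest to the right, and Clu furthest to the left at -0.39.

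Among initiators, C1s1, a C1s protease that C1 inhibitor blocks, was at 10.2 and 13.995 FPKM in KO 1 and KO 2 and at 6.93 and 5.60 FPKM in WT 1 and WT 2. Here KO 1 too stood clear of the WT libraries. The log2 fold change was 0.84 ± 0.18 (SE; limma adjusted p = 0.158). C1s1 has a close copy, C1s2, below 1 FPKM throughout, and 18.4% of its exonic bases overlap an antisense gene. Properdin (Cfp), which stabilises the alternative convertase, was at 23.9 and 22.4 FPKM in the KO libraries against 17.9 and 21.8 FPKM in the WT libraries (log2 fold change 0.21 ± 0.13, SE; limma adjusted p = 0.478).

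Of the terminal components, which build the membrane attack complex, Hc (complement C5) was abundant. It was at 344 and 467 FPKM in KO 1 and KO 2, against 276 and 209 FPKM in WT 1 and WT 2. Both KO libraries exceeded both WT libraries, with a log2 fold change of 0.74 ± 0.20 (SE; limma adjusted p = 0.212). C3 over Hc was 0.814 and 1.47 in KO 1 and KO 2 and 0.949 and 0.991 in WT 1 and WT 2. C7, which anchors the complex in the membrane, was at 4.19 and 6.23 FPKM in KO tumours and 4.07 and 1.84 FPKM in WT tumours (limma adjusted p = 0.356).

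Other regulators had mixed values, and 3 of 6 tested membrane regulators had a positive log2 fold change. Clusterin (Clu), which blocks the terminal complex, had both KO libraries below both WT libraries, at 2732 and 3239 FPKM against 3500 and 4371 FPKM (log2 fold change -0.39 ± 0.24, SE; limma adjusted p = 0.483). Cd59a and Cd59b, which encode membrane inhibitors of the same step, had log2 fold changes of -0.31 and -0.20 (limma adjusted p = 0.422 and 0.579). Their sequences are similar, and shared reads may have been split or dropped.

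For 8 tested receptors the median log2 fold change was 0.06. C3ar1, the receptor for the C3a fragment, was at 2.20 and 3.29 FPKM in KO 1 and KO 2 and 1.85 and 1.74 FPKM in WT 1 and WT 2 (limma adjusted p = 0.374). The C5a receptor C5ar1 was at 3.57 and 2.29 FPKM in KO tumours and 2.11 and 2.31 FPKM in WT tumours (limma adjusted p = 0.553), with KO 1 the high library. Itgam and Itgb2, the chains of complement receptor 3, had log2 fold changes of 0.45 ± 0.22 and -0.04 ± 0.12 (SE; limma adjusted p = 0.400 and 0.904).

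The outcome for the tested genes turned on the KO libraries. With KO 1 left out, 5 of the 6 were called as higher (C1qa, C1qb, C3, C4b and Serping1), at limma adjusted p between 0.0136 for C4b and 0.0493 for C1qa, and 221 genes were called in all. The log2 fold change was then 1.55 ± 0.21 for C3, 1.22 ± 0.15 for C4b and 1.58 ± 0.24 for Serping1 (SE). With KO 2 left out, 0 were called, and the fold changes were 0.26 ± 0.20 for C3, 0.10 ± 0.15 for C4b, 0.42 ± 0.24 for Serping1 and 0.06 ± 0.15 for C1qc (SE; limma adjusted p between 0.544 and 0.911 over the 6). Their median log2 fold change was 0.61 with all libraries, 1.09 without KO 1 and 0.19 without KO 2. In these fits the lone KO library is assumed to vary like the WT pair.

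**Figure D3:**
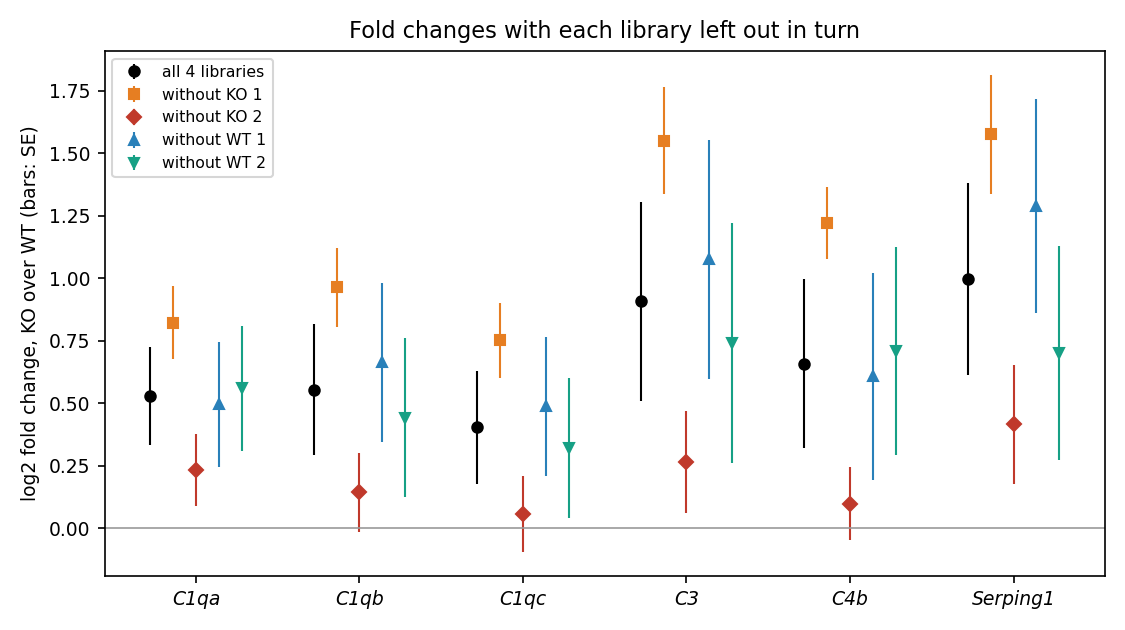
Log2 fold change of KO over WT with its SE (vertical axis) for the 6 tested genes, with all 4 libraries and with each library left out. Values without KO 1 are the highest for every gene and those without KO 2 the lowest, down to 0.06 for C1qc.

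Several lists of cell type markers also differed between libraries, and in bulk tumours more cells of a type and more RNA per cell cannot be told apart. Fibroblast and matrix genes were highest in KO 2 for 12 of 13 tested members, against 30.1% of all tested genes. The list of 14 summed to 439 and 670 FPKM in KO 1 and KO 2 and to 400 and 280 FPKM in WT 1 and WT 2. Col3a1, a fibrillar collagen, had 109 and 221 FPKM in the KO libraries and 108 and 67.3 FPKM in the WT libraries. Col1a1 had 110 and 153 FPKM in KO 1 and KO 2 and 120 and 86.5 FPKM in WT 1 and WT 2. For Col1a1 the groups overlapped. Both KO libraries were above both WT libraries for 9 of the 13, and 1, Col6a1, was called as higher in KO tumours. Over all tested genes 22.7% had that order and 0.0761% were called as higher. Col6a1, a collagen VI chain, was at 61.3 and 65.3 FPKM in KO 1 and KO 2 and 27.0 and 25.9 FPKM in WT 1 and WT 2, so KO 1 was close to KO 2 there, as it was for Dcn (29.6 and 30.5 FPKM in KO tumours, 20.2 and 18.6 FPKM in WT tumours). Endothelial markers were highest in KO 2 for 8 of 10, again against 30.1% of all tested genes. They summed to 273 and 372 FPKM in KO tumours and to 302 and 221 FPKM in WT tumours. The part of both lists in the values of C3, C4b and Serping1 was not tested.

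Of 14 tested pan-macrophage markers, set beside the C1q genes, 5 had both KO libraries above both WT libraries, 5 were highest in KO 2 and 0 were called. Over all tested genes these shares were 22.7%, 30.1% and 0.114%. The median log2 fold change of the 14 was 0.16, and 11 of them had a positive one. Mrc1 (-0.27), Mertk (-0.07) and Adgre1 (-0.03) had negative ones, and Cd14 was at 0.00. Lyz2, a lysozyme, was at 17198 and 11979 FPKM in KO 1 and KO 2 and 9798 and 9247 FPKM in WT 1 and WT 2, with KO 1 the high library. Apoe, a lipid carrier, was at 934 and 1246 FPKM in KO 1 and KO 2 and 897 and 937 FPKM in WT 1 and WT 2, with KO 2 the high library. Aif1 was at 7.11 and 7.07 FPKM in the KO libraries and 4.10 and 3.99 FPKM in the WT libraries (log2 fold change 0.68 ± 0.12, SE; limma adjusted p = 0.120). The highest value was 1.86 times the lowest for Lyz2 and 1.78 times for Aif1, the widest spans of the 14. Cd14 had the narrowest, 1.14 times. Among the C1q genes, C1qa had 1.82 times, C1qb 2.15 times and C1qc 1.80 times. For Aif1 the KO libraries were almost level. Ms4a7, another marker of the list, was highest in KO 2, as the C1q genes were. It was at 4.61 and 6.86 FPKM in KO 1 and KO 2 and 4.73 and 4.35 FPKM in WT 1 and WT 2, a span of 1.57 times. The list of 15 summed to 18839 and 13912 FPKM in KO tumours and 11325 and 10791 FPKM in WT tumours, most of it from Lyz2. That sum is not read here as an amount of macrophages. No marker of the list was at 0 in all libraries. Both KO libraries were above both WT libraries for 8 of 8 tested T cell markers, 7 of 8 neutrophil markers, 6 of 8 club cell markers and 5 of 5 erythroid markers. The same held for 5 of 5 dendritic cell, 4 of 5 mesothelial and 4 of 6 B and plasma cell markers. It held for 3 of 10 endothelial, 1 of 10 alveolar macrophage, 1 of 10 alveolar type 2, 1 of 5 hepatocyte and 1 of 2 adipocyte markers. Of all tested genes 22.7% had that order. Both KO libraries were below both WT libraries for 5 of 10 alveolar type 2 and 3 of 5 hepatocyte markers. So they were for 2 of 10 alveolar macrophage, 1 of 2 adipocyte and 1 of 5 mesothelial markers, against 25.4% of all tested genes. Of the neutrophil markers 3 were called as higher in KO, against 0.0761% of all tested genes. In erythroid markers KO 1 (median deviation 0.77) was close to KO 2 (0.81), unlike in the complement genes. The part of these lists in the complement values was not tested. Hepatocyte markers were low, with Alb at 3.62 and 3.01 FPKM in KO tumours against 6.21 and 5.88 FPKM in WT tumours and Cps1 listed at 0.

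**Figure D4:**
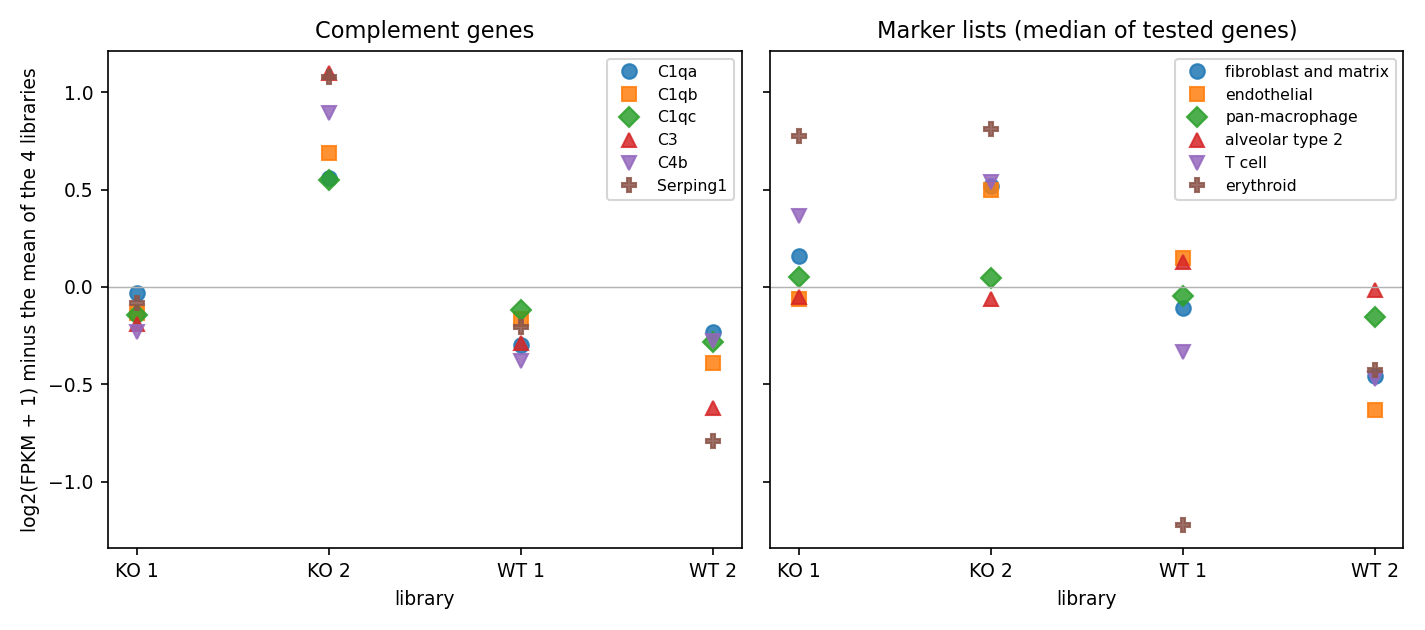
Deviation of log2(FPKM + 1) from the mean of the 4 libraries (vertical axis) for the 6 tested complement genes (left) and, for 6 marker lists, the median over their tested genes (right). The complement genes are at 0.55 or above in KO 2 and below 0 in the other libraries, and the median over the pan-macrophage list, in which single markers vary more, lies between -0.15 and 0.05.

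Genes beside the complement genes on the chromosome had mixed values. Beside C3, Tnfsf14, a TNF family ligand too low to be tested, was at 0.718 and 1.18 FPKM in KO 1 and KO 2 and 0.497 and 0.304 FPKM in WT 1 and WT 2, so KO 2 was highest there too. Beyond C4b, Cyp21a1, a steroid hydroxylase with a near-identical pseudogene, was at 23.6 and 7.502 FPKM in KO 1 and KO 2 and at 26.4 and 35.7 FPKM in WT 1 and WT 2, lowest in KO 2 (limma adjusted p = 0.325). Ehmt2, a histone methyltransferase beyond C2, was at 101 and 100.1 FPKM in KO tumours and 101 and 105 FPKM in WT tumours. Gpr108, on the other side of C3, had a log2 fold change of 0.00 ± 0.10 (SE; limma adjusted p = 0.994). On the low side of the C1q genes, Ephb2, an ephrin receptor, was at 1.93 and 0.747 FPKM in the KO libraries and 3.98 and 5.19 FPKM in the WT libraries (limma adjusted p = 0.149). Ube2l6, beside Serping1 and an enzyme of ISG15 conjugation, was at 18.9 and 21.2 FPKM in KO tumours against 15.3 and 16.6 FPKM in WT tumours (limma adjusted p = 0.298).

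The genes most like each member in pattern were sought among genes with a mean of at least 10 FPKM, by the distance between their deviations over the 4 libraries. Nearest to C3 were Rgs4, Bcap29 and Serping1 (distance 0.20 to 0.22), and C3 followed, for Serping1, Sparcl1 (0.17), a matrix-associated protein, and Col3a1 (0.19). C4b was nearest to Chn2, Xbp1 and Car2 (0.10 to 0.18). C1qa was nearest to Gstp1, Phlda3 and Gadd45g (0.07 to 0.14), C1qb to Klf10, Ext1 and Jchain (0.08 to 0.13), and C1qc to Tcn2, Chil1 and Ces1d (0.04 to 0.08). For the low genes C2 and Cfb the nearest were Emb and Hmgn3, at deviations that rest on few reads. With 4 libraries, likeness in pattern is a description.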

How the data were processed

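FPKM per gene was deposited by the authors for 4 libraries. The submitters' processing notes name mm10, TopHat2 and DESeq2, without roles or versions. Counter, annotation and strandedness: not given in the sources used here. Symbols (34490 of 35275 identifiers), coordinates (from 1) and exon overlaps come from GENCODE M21 on GRCm38, the assembly of mm10. Multiplying by gene length gave whole reads in every library for 21600 of 21601 genes above 0 (tolerance 0.0002 reads and 2e-08 of the value). That length was annotated for 5488 genes and otherwise the smallest possible, so those reads may be undercounted. Limits from reads cover counting error only.

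KO and WT were compared by limma 3.58.1 (R 4.3.3), with a trend in the variance prior, on log2(FPKM + 1), which understates changes of low genes. The 13147 genes tested had FPKM at or above 1 in at least 2 libraries. Residual degrees of freedom were 2 and those of the prior 4.12. The script was tested on simulated data. The series design counts 2 mice a genotype, and p-values measure the spread between these 4 pooled samples.

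Alternatives were quantile normalization, median centring, no trend, no filter, a filter at 5 FPKM, pseudocounts of 0.1 and 10, limma-voom on recovered reads, the replicate number as a block, an adjusted p under 0.1 and leaving out each library. The members and lists were chosen with earlier results of these data known. Named genes are the 9 members, called genes of the wider list, up to 3 per role with the largest fold change and no overlap between groups, main partners (Itgam, Itgb2, C3ar1, C5ar1 and Cfp), nearest coding neighbours, the 3 genes nearest in pattern, and the highest or absent markers. C1s2, C4a, Aif1, Ms4a7, Mrc1, Mertk, Adgre1, Cd14, Col6a1 and Dcn were added after their values were seen. One gene of the wider list is counted in the list but not reported here.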

Additional observations from a re-analysis of the deposited data

How the results depend on the processing

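The fold changes of the 6 tested complement genes kept their sign in all 78 combinations of gene and alternative, and 73 also stayed uncalled; the other 5 were the calls made without KO 1. Members called ranged from 0 to 5, and genes of the wider list from 0 to 7, when each library was left out (the highest without KO 1), and were 0 under the other alternatives, including limma at an adjusted p under 0.1 and limma-voom. The members' median log2 fold change ranged from 0.19 without KO 2 to 1.09 without KO 1, and that of the wider list from 0.09 to 0.46 with the same libraries left out; a pseudocount of 10 gave the wider list 0.10. Genes called over the whole table numbered 15, against 65 at an adjusted p under 0.1, 1 with no filter, 8 with limma-voom on recovered reads, and 10 to 221 with a library left out (221 without KO 1 and 49 without KO 2). Quantile normalization moved the median of all genes to -0.02. The replicate number as a block gave 69 calls and 0 among the members. Same-numbered libraries deviated in opposite directions (correlation -0.31 across genes), and nothing in the labels pairs them. The causes were not tested. C2 and Cfb could be fitted only with no filter. Cfd had no value above 0 to test.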
